A study of Mus musculus with 6 samples.

Results

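DNA methylation was examined around 10 target genes of the transcription factor STAT5 in CD8+ T cells of mice that carried no transgene, human STAT5B, or human STAT5B with the N642H change. The genes were chosen by name and fell into 3 roles: the feedback inhibitors Cish, Socs1, Socs2, and Socs3, the survival genes Pim1, Bcl2, Bcl2l1, and Mcl1, and the growth genes Ccnd2 and Myc. For each gene, every CpG in the gene body and 10 kb on either side was taken (mouse genome GRCm38, also called mm10) if all 6 libraries had at least 5 reads on it and none had 1000 or more. This gave 735 CpGs of the 1191873 that met the same limits in the series. Of these, 426 lay in promoter CpG islands (CGIs, stretches rich in CpG that lie within 500 bp of a start of a protein-coding gene), 15 lay in other CGIs, and 294 lay outside CGIs. The 10 windows hold 6762 CG positions, so that most of them were not measured. Coverage was highest for Mcl1, with 96 CpGs or 24.9% of its window, and lowest for Bcl2, with 62 CpGs or 3.75% of a gene that is 176.097 kb long.

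Methylation was measured by reduced representation bisulfite sequencing (RRBS), which cuts DNA with MspI at CCGG and so favors CpG-rich DNA. The groups were wild-type (WT) C57BL/6N mice, hSTAT5B +/T mice with a transgene for human STAT5B, and hSTAT5BN642H (hSTAT5B N642H +/T) mice with a transgene for human STAT5B that carries N642H in its SH2 domain, the part that pairs STAT5 molecules. Both transgenes ran from the Vav1 promoter, which is active across blood cells, and 1 transgenic line was used for each, so that genotype and line cannot be told apart. The mice were 13 weeks old, and those with hSTAT5BN642H had T cell disease, so that the change in STAT5B and the disease state cannot be told apart either. CD8+ T cells were enriched magnetically from LNs (lymph nodes), and each genotype had 2 libraries, each from 1 mouse. Below, values of a genotype are given for replicate 1 and then replicate 2, and n is 2 per genotype throughout. The design asks how CD8+ T cells with hSTAT5BN642H differ from WT cells, and hSTAT5B is the control for the transgene itself.

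STAT5 is a latent factor that cytokine receptors switch on. Receptors for IL-2, IL-7, or IL-15 activate Janus kinases (JAKs), the JAKs phosphorylate STAT5, and paired STAT5 molecules bind DNA, most tightly at palindromes of the form TTCNNNGAA. In CD8+ T cells, STAT5 then turns on genes that keep the cell alive, genes that drive division, and inhibitors that close the loop by damping the receptor. DNA methylation at CpGs is usually low in CGIs at active or poised promoters and high elsewhere, and it often falls at enhancers in use.

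The libraries listed 2597893 to 3445555 CpGs, with 43291086 to 67007186 reads on them. The CpGs of the 10 genes had a median of 16 to 31 reads per library and 5 to 283 reads each. The CD8 markers Cd8a and Cd8b1 averaged 47.5% and 30.8% methylation in WT, 22.0% and 26.4% in hSTAT5B, and 12.7% and 10.5% in hSTAT5BN642H. WT replicate 1 stood apart at Cd8a, with 49.4% against 5.63% to 25.2% in the other 5 libraries. At Cd8b1 it did not, with 45.6% against 44.7% in WT replicate 2. The other 4 libraries held 15.3% to 27.6% at Cd8b1, with both hSTAT5BN642H libraries below both hSTAT5B libraries. WT replicate 1 also had the lowest mean over the 4 of 6 B cell markers that were measured, 65.9% against 69.2% to 70.8%. The means over 4 of 6 T cell markers (63.3% to 65.6%), 2 CD4 T cell markers (32.7% to 36.0%), and 5 of 6 myeloid markers (83.6% to 86.5%) varied less, and neither of the 2 NK cell markers had enough CpGs. The part of these markers in the results below was not tested. In bulk DNA, a different mixture of cells and a different level in each cell cannot be told apart. In each pair of replicates, 12% to 20% of the 360077 CpGs that had 20 reads or more in every library had identical levels, so that no pair held the same values throughout.

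The sequences on which the results turned are shown first, all on the plus strand of GRCm38 and taken from its RefSeq copy. Capitals mark the CpGs with the differences described below and each TTCNNNGAA motif. The Pim1 sequences lie downstream of the gene. They are the pair of CpGs nearest the gene (chr17:29499305-29499455), a pair of motifs (chr17:29499713-29499996), the third CpG with another motif (chr17:29500687-29500942), and the fourth CpG (chr17:29501420-29501540). The pair of CpGs had the widest differences between hSTAT5BN642H and WT of the 735.
Pim1 pair: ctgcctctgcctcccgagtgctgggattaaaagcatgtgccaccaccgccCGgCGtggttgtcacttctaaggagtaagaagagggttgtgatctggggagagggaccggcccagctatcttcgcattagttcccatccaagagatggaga
Pim1 motifs: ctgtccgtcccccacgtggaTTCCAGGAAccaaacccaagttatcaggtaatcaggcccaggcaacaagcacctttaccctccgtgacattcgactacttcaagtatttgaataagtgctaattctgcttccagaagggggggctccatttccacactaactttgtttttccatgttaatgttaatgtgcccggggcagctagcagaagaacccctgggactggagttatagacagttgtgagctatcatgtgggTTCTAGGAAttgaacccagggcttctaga
Pim1 at 29500727: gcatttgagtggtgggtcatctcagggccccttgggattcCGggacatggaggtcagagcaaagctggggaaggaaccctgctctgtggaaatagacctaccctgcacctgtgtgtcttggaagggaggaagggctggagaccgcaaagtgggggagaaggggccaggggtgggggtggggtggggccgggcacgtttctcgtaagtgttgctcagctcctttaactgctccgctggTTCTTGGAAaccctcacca
Pim1 at 29501480: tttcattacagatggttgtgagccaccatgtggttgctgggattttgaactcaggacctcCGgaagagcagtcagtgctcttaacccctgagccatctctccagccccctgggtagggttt

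The next sequences are the motifs in the promoter CGI of Cish, the Socs2 motif that holds a measured CpG, and an intron of Bcl2 with a pair of CpGs that differed. Motifs in the promoter CGI of Socs2, at 95416904 and 95416915, have a measured CpG 8 and 7 bp from their centers and are not shown. The Cish motifs lie in the promoter CGI (chr9:107296659-107296678 and chr9:107296764-107296789), the Socs2 motif in an intron (chr10:95406752-95406820), and the Bcl2 CpGs at chr1:106619083-106619243.
Cish first motif pair: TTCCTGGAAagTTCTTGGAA
Cish second motif pair: TTCTAGGAAgatgaggcTTCCGGGAA
Socs2 motif: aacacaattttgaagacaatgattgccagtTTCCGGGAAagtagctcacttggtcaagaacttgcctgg
Bcl2 intron: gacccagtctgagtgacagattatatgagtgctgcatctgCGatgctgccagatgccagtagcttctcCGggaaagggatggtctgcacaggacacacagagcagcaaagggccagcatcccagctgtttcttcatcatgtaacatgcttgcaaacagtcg

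The promoter CGIs of all 10 genes were nearly free of methylation in every genotype. Among the feedback genes, the promoter CGI of Cish, whose product CIS binds cytokine receptors, was methylated at 2.42% and 1.44% in WT, 0.686% and 2.37% in hSTAT5B, and 1.87% and 2.13% in hSTAT5BN642H. That of Socs1, which encodes an inhibitor of JAKs, held 1.78% and 1.32%, then 1.77% and 2.18%, then 2.63% and 1.82% in the same order. That of Socs3, an inhibitor of receptors of the IL-6 type, held 1.36% and 1.94%, 2.00% and 0.719%, and 0.466% and 1.61%. At Cish and Socs3 the libraries of hSTAT5BN642H and WT overlapped, and at Socs1 those of hSTAT5BN642H were higher without overlap, by 0.675 percentage points (hereafter points).

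Socs2, which restrains growth hormone receptors, had the most methylated promoter CGI, with 7.64% and 7.57% in WT, 6.77% and 7.74% in hSTAT5B, and 7.34% and 6.75% in hSTAT5BN642H. Both hSTAT5BN642H libraries were below both WT libraries, by less than 1 point. A run of 7 of its 77 CpGs, in an exon (chr10:95414892-95414943), held 66.1% and 58.1%, 42.3% and 55.7%, and 62.5% and 52.3%. At these CpGs hSTAT5BN642H and WT overlapped.

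Among the survival genes, the promoter CGI of Pim1, a kinase that sustains growth and blocks death, held 1.81% and 1.00% in WT, 1.2% and 1.28% in hSTAT5B, and 1.29% and 1.06% in hSTAT5BN642H. The main promoter CGI of Bcl2, the founding inhibitor of mitochondrial cell death, held 2.48% and 0.936%, 1.93% and 2.59%, and 1.15% and 1.12%. A second, small CGI of Bcl2 with 5 CpGs varied most between replicates, with 2.99% and 6.14%, 10.9% and 0%, and 4.54% and 0%. The promoter CGI of Bcl2l1, which encodes BCL-XL, held 2.65% and 2.44%, 2.34% and 1.24%, and 2.48% and 2.22%. That of Mcl1, a short-lived relative of BCL2, held 0.685% and 1.37%, 1.54% and 1.91%, and 0.598% and 1.19%. None of these CGIs separated hSTAT5BN642H from WT.

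Among the growth genes, the promoter CGI of Ccnd2, which encodes cyclin D2 of the G1 phase, held 1.67% and 1.22%, 0.510% and 1.56%, and 1.03% and 1.32% over 4 CpGs. That of Myc, the transcription factor of growth and ribosome production, held 2.78% and 2.42%, 0.985% and 1.99%, and 1.80% and 1.69%. Both hSTAT5BN642H libraries were thus below both WT libraries at Myc, with a mean difference of -0.856 points, and so were both hSTAT5B libraries, with -1.11 points.

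Each promoter CGI was tested with limma on log2 of methylated over unmethylated reads, fitted over 13342 CGIs. Of the 11 promoter CGIs of the 10 genes, 0 were called at adjusted p under 0.05 in any of the 3 comparisons, as were 0% of all CGIs, and the adjusted p values for hSTAT5BN642H against WT ran from 0.902 to 0.995. At unadjusted p under 0.05, limma gave 0 of the 11 in each comparison, where it gave 5.7% of all CGIs for hSTAT5BN642H against WT, 6.19% for hSTAT5B against WT, and 5.71% for hSTAT5BN642H against hSTAT5B. The quasi-binomial model and Fisher's exact test on pooled reads also called 0 of the 11. The median difference of hSTAT5BN642H from WT was -0.271 points over the 11 and 0.152 points over all CGIs.

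Outside the promoter CGIs, the Pim1 neighborhood was the one with the lowest methylation in hSTAT5BN642H relative to the other genotypes on the log2 scale. A neighborhood here is the gene body with 10 kb on either side, without the promoter CGIs, and its level is the unweighted mean over its CpGs. The 35 CpGs around Pim1 averaged 19.2% and 18.8% in WT, 17.5% and 19.5% in hSTAT5B, and 11.2% and 10.1% in hSTAT5BN642H. Both hSTAT5BN642H libraries were below the other 4, and the mean was 10.7% ± 0.775 (SD, n = 2) against 19.0% ± 0.229 in WT. The log2 difference between hSTAT5BN642H and WT was -0.82 (SE 0.20, limma adjusted p = 0.40, rank 189 of 16398 neighborhoods), and that between hSTAT5BN642H and hSTAT5B was -0.78 (SE 0.20, adjusted p = 0.424). These differences did not pass the test.

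The other survival genes were methylated at intermediate levels. The 26 CpGs around Bcl2 averaged 55.5% and 54.9% in WT, 54.7% and 55.2% in hSTAT5B, and 48.1% and 50.1% in hSTAT5BN642H. Those around Bcl2l1 averaged 51.8% and 54.2%, 52.7% and 51.2%, and 47.5% and 49.8%. At both genes the hSTAT5BN642H libraries lay below the other 4, with mean differences from WT of -6.12 points at Bcl2 (adjusted p = 0.556, limma) and -4.36 points at Bcl2l1 (adjusted p = 0.871). The 22 CpGs around Mcl1 averaged 39.2% and 42.1% in WT, 45.6% and 43.5% in hSTAT5B, and 45.0% and 42.4% in hSTAT5BN642H, so that both transgenic genotypes lay above WT and overlapped each other.

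Of the feedback genes, Socs1 had the widest difference in points. Its 11 CpGs averaged 53.3% and 49.9% in WT, 50.8% and 44.1% in hSTAT5B, and 40.9% and 41.2% in hSTAT5BN642H. The hSTAT5BN642H libraries lay below both other genotypes without overlap, with differences of -10.5 points from WT and -6.42 points from hSTAT5B (adjusted p = 0.529 and 0.456, limma). Socs3 had 22 CpGs at 33.3% and 37.2%, 37.6% and 40.8%, and 37.1% and 40.4%. Here hSTAT5BN642H and WT overlapped by level, while the test on summed reads gave a log2 difference of 0.72 (SE 0.17, adjusted p = 0.40), higher in hSTAT5BN642H. Cish, with 23 CpGs at 50.9% and 54.2%, 54.5% and 53.2%, and 52.1% and 56.7%, overlapped in each comparison. Socs2, with 40 CpGs at 70.2% and 70.1%, 72.1% and 71.6%, and 68.0% and 70.7%, was the most methylated of the 10 and overlapped between hSTAT5BN642H and WT.

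The growth genes were among the least methylated. The 82 CpGs around Ccnd2 averaged 26% and 24.3% in WT, 25.5% and 24.9% in hSTAT5B, and 24.2% and 23.4% in hSTAT5BN642H. The 23 CpGs around Myc averaged 21.4% and 19.9%, 19.9% and 20.6%, and 18.6% and 17.6%. The hSTAT5BN642H libraries were lowest at both genes by level, while the log2 differences from WT on summed reads were 0.12 for Ccnd2 and 0.11 for Myc, so that the direction depended on how the CpGs were weighted. At Ccnd2, leaving out the promoter CGI did not leave out the low CpGs around the start of the gene. Runs of CpGs there that lay outside this CGI held 0% to 8.57% in WT and were counted in the neighborhood. Runs in exons farther into the gene held 96.5% and 94.4% (chr6:127129737-127129836) and 95% and 92.5% (chr6:127146023-127146062) in WT.

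**Figure D1:**
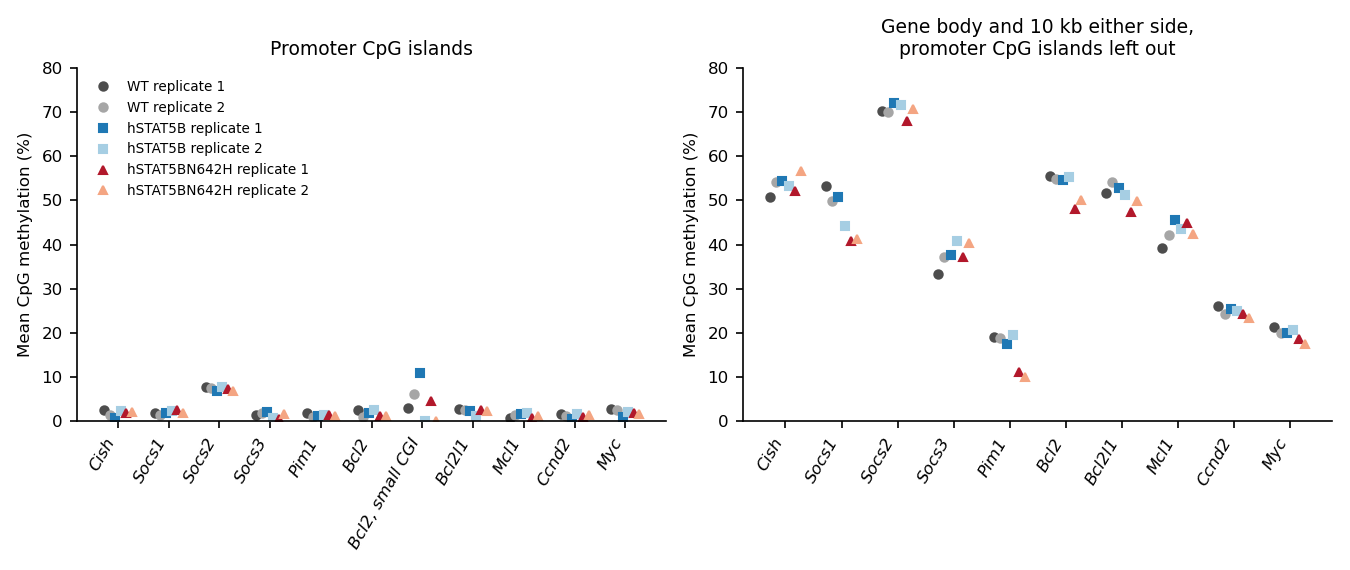
Mean CpG methylation in percent for each gene and library, with promoter CGIs in the left panel and gene bodies with 10 kb on either side, promoter CGIs left out, in the right panel. Each point is 1 library (circles WT, squares hSTAT5B, triangles hSTAT5BN642H). The promoter CGIs lie near the bottom in all libraries, and at Pim1 the hSTAT5BN642H libraries lie at 11.2% and 10.1%, below the other 4.

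Over the 10 neighborhoods, limma called 0 in each comparison and 0% of all 16398. At unadjusted p under 0.05 it gave 3 of the 10 for hSTAT5BN642H against WT (Pim1, Socs1, and Socs3) where 9.03% of all neighborhoods passed, 0 of the 10 for hSTAT5B against WT where 5.96% passed, and 3 of the 10 for hSTAT5BN642H against hSTAT5B (Pim1, Socs1, and Cish) where 10.1% passed. The quasi-binomial model called 0 of the 10 in each comparison. Fisher's exact test on pooled reads, which ignores the spread between libraries, called 5, 2, and 7 of the 10 in the same order, against 35.1%, 21.6%, and 37.3% of all neighborhoods.

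By level, hSTAT5BN642H lay below WT without overlap at 6 of the 10 genes (Socs1, Pim1, Bcl2, Bcl2l1, Ccnd2, and Myc) and above at 1 (Mcl1), against 27.3% and 15.4% of all neighborhoods. Below hSTAT5B it lay at 7 of the 10, these 6 and Socs2, and above at 0, against 30% and 13.3% of all. In contrast, hSTAT5B lay below WT at 0 of the 10 and above at 3 (Mcl1, Socs2, and Socs3), against 14.6% and 19.2%. Differences of at least 5 points were seen at 3 of the 10 between hSTAT5BN642H and WT (Pim1, Socs1, and Bcl2) and at the same 3 between hSTAT5BN642H and hSTAT5B, against 3.71% and 3.37% of all neighborhoods, and at 0 of the 10 between hSTAT5B and WT, against 2.02%. The median difference over the 10 was -2.00 points from WT and -2.34 points from hSTAT5B in hSTAT5BN642H, where all neighborhoods had -0.344 and -0.494 points. For hSTAT5B against WT it was -0.105 points over the 10 and 0.157 over all. The comparisons share their libraries and are not independent of each other. These levels depended on the read limit. With at least 10 reads in every library, the difference of hSTAT5BN642H from WT was -4.62 points at Pim1, -3.17 at Bcl2, and -0.875 at Bcl2l1. At Pim1 that limit leaves out the pair of CpGs past the gene, which had 9 reads in WT replicate 1. At Socs1 the difference from hSTAT5B was -3.09 points without hSTAT5B replicate 1.

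Runs of at least 3 CpGs within 100 bp of each other (clusters) placed the differences within the windows. Of 71 clusters around the 10 genes, limma called 0 in each comparison, as it did for 0% of all 125429. At unadjusted p under 0.05 it gave 6, 4, and 11 of the 71 for hSTAT5BN642H against WT, hSTAT5B against WT, and hSTAT5BN642H against hSTAT5B, where 6.84%, 6.31%, and 6.9% of all clusters passed. The quasi-binomial model called 0 in each, and Fisher's exact test on pooled reads called 5, 1, and 5, against 7.26%, 3.05%, and 6.98% of all clusters. In the same order, 7, 7, and 6 of the 71 clusters were at least 5 points apart, or 9.86%, 9.86%, and 8.45%, against 18.3%, 16.2%, and 18.2% of all clusters. Of the 71, 32 lay in promoter CGIs, where levels were mostly near 0. Without WT replicate 1 the first of these counts was 7 and the second 9, and without hSTAT5BN642H replicate 1 the first was 13.

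The widest cluster differences between hSTAT5BN642H and WT without overlap were lower at Socs1, Bcl2l1, and Myc. At Socs1 the cluster lay 8.589 kb past the end of the gene (chr16:10773651-10773772, 3 CpGs) and held 100% and 78.4% in WT, 73.0% and 76.3% in hSTAT5B, and 62.0% and 58.7% in hSTAT5BN642H, a difference of -28.9 points (limma adjusted p = 0.702). At Bcl2l1 it lay in an exon (chr2:152829758-152829803, 4 CpGs) and held 70.9% and 81.8%, 82.3% and 72.2%, and 53.8% and 64.3%, or -17.3 points in hSTAT5BN642H relative to WT (adjusted p = 0.767). At Myc it lay upstream, within the gene model Gm37947 (chr15:61981624-61981715, 4 CpGs), and held 16.8% and 9.21%, 8.82% and 11.9%, and 5.42% and 0% (-10.3 points from WT, adjusted p = 0.705). Without WT replicate 1, the library that stood apart at Cd8a, the difference was -18.1 points at Socs1 and -6.50 points at Myc.

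Smaller differences were seen at 5 other genes. An exon of Pim1 (chr17:29495682-29495857) held 29.6% and 29.4% in WT, 22.6% and 19.1% in hSTAT5B, and 23.3% and 18.1% in hSTAT5BN642H, so that both transgenic genotypes lay below WT there. A Socs2 intron (chr10:95389093-95389122) held 88.1% and 96.9%, 100% and 87.4%, and 84.8% and 82.4%, a difference of -8.91 points from WT that was -4.55 points without WT replicate 2. Downstream of Socs3 (chr11:117960007-117960126) the levels were 6.98% and 5.72%, 2.86% and 3%, and 2.28% and 0.806%. Upstream of Ccnd2, within the gene model 9330179D12Rik (chr6:127152639-127152701), the hSTAT5BN642H libraries were instead higher, with 0% and 2.08%, 3.82% and 4.64%, and 7.27% and 5.59%. Near Cish, within Mapkapk3 (chr9:107289560-107289586), the hSTAT5BN642H libraries held 0.667% and 0.585% and the other 4 held 0%. This cluster had 3 CpGs and 90 to 186 reads per library. These levels lie near the floor at that depth and rest on very few methylated reads. Bcl2 and Mcl1 had no cluster outside their promoter CGIs that separated hSTAT5BN642H from WT.

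Single CpGs outside CGIs were then compared, a step chosen after the data had been seen. Between hSTAT5BN642H and WT, 14 of the 294 CpGs around the 10 genes were at least 20 points lower without overlap and 1 was at least 20 points higher, or 4.76% and 0.340%, against 1.93% and 1.5% of 879866 CpGs outside CGIs in the series. Of the 14, 5 lay at Pim1, 3 at Socs1, 3 at Bcl2, 2 at Bcl2l1, and 1 at Myc, and the 1 that was higher lay at Socs3. Between hSTAT5BN642H and hSTAT5B there were 14 lower and 0 higher, against 1.93% and 1.36%. Between hSTAT5B and WT there were 4 lower and 9 higher, against 1.35% and 1.44%. Neighboring CpGs share reads and are not independent. Without WT replicate 1, 13 CpGs were lower and 4 higher in hSTAT5BN642H than in WT, and without hSTAT5BN642H replicate 1, 19 were lower and 7 higher. Against hSTAT5B, 22 were lower and 3 higher without hSTAT5B replicate 2. Fewer libraries make overlap less likely by construction.

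Without a limit on size, 44 of the 294 CpGs were lower and 22 higher in hSTAT5BN642H than in WT without overlap, against 15.5% and 9.62% of all CpGs outside CGIs, and the median difference was 0 points in both. Fitted to each of the 1191873 CpGs, limma called 0 of the 735 in each comparison and 0% of all, and the quasi-binomial model also called 0. At unadjusted p under 0.05, limma gave 39, 32, and 46 of the 735 for hSTAT5BN642H against WT, hSTAT5B against WT, and hSTAT5BN642H against hSTAT5B, where 6.28%, 4.85%, and 6.27% of all CpGs passed. Fisher's exact test on pooled reads called 6, 0, and 7 of the 735 in the same order, against 0.844%, 0.145%, and 0.62% of all CpGs.

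**Figure D2:**
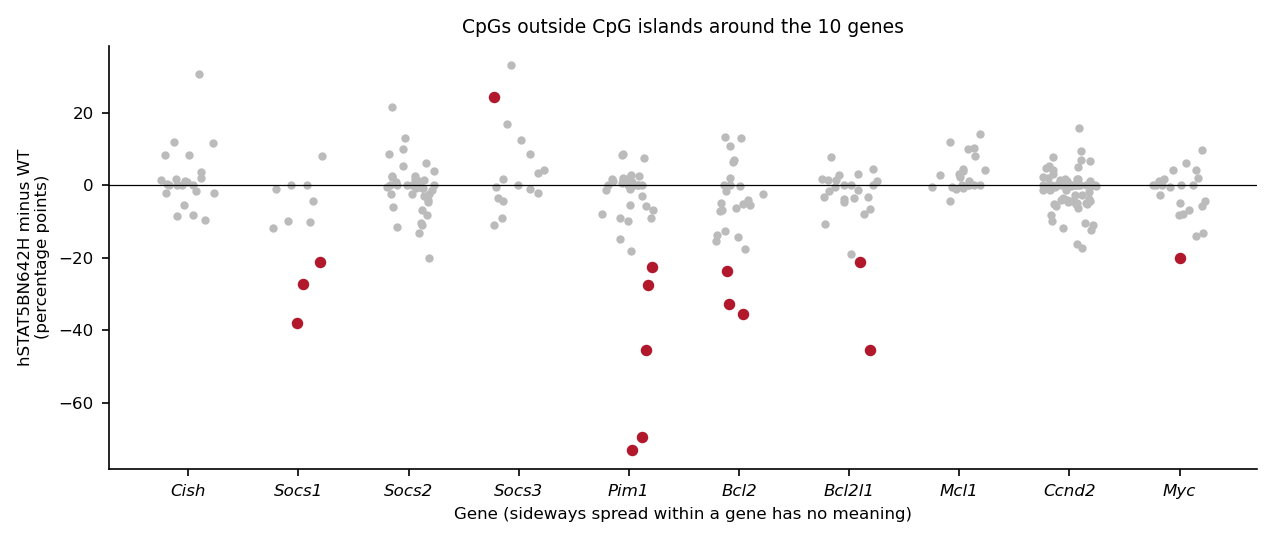
Difference in methylation between hSTAT5BN642H and WT in percentage points, for each of the 294 CpGs outside CGIs, by gene. Red points differ by at least 20 points without overlap between the libraries of the genotypes. The lowest red points lie at Pim1, at -73.0 and -69.5 points, and the red point above 0 lies at Socs3.

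At 4 CpGs downstream of Pim1, hSTAT5BN642H was at least 20 points below both other genotypes without overlap. The pair of these nearest the gene had the widest differences between hSTAT5BN642H and WT of all 735. The CpG 3.243 kb past the end of the gene (chr17, position 29499355) was methylated in 9 of 9 and 16 of 18 reads in WT and in 22 of 27 and 15 of 17 reads in hSTAT5B, but in 8 of 42 and 5 of 21 reads in hSTAT5BN642H. In percent, these are 100% and 88.9%, 81.5% and 88.2%, and 19.0% and 23.8%. The CpG 3 bp away (29499358) held 100% and 94.1% in WT, 100% and 94.1% in hSTAT5B, and 17.1% and 38.1% in hSTAT5BN642H. At both CpGs the higher hSTAT5BN642H library was far below the lowest of the other 4.

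The other 2 of these 4 CpGs started from lower levels. The CpG 4.615 kb past the end (29500727) was methylated in 19 of 79 and 31 of 87 reads in WT, 19 of 84 and 13 of 37 in hSTAT5B, and 3 of 103 and 1 of 68 in hSTAT5BN642H, or 24.1% and 35.6%, 22.6% and 35.1%, and 2.91% and 1.47%. The CpG 5.368 kb past the end (29501480) was methylated in 29 of 47 and 28 of 45 reads in WT, 39 of 58 and 34 of 44 in hSTAT5B, and 13 of 66 and 6 of 45 in hSTAT5BN642H, or 61.7% and 62.2%, 67.2% and 77.3%, and 19.7% and 13.3%. At this CpG hSTAT5B lay above WT and hSTAT5BN642H below both. The exact 95% binomial intervals of hSTAT5BN642H, which cover counting error only, ended at 34.1% and 47.2% for the first CpG and those of the other 4 libraries began at 61.9% or above.

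The difference from WT was -73.0 points at the first CpG, -69.5 at the second, -27.6 at the third, and -45.4 at the fourth, and from hSTAT5B it was -63.4, -69.5, -26.7, and -55.7 points. By limma over all CpGs, they ranked 35, 131, 324, and 1857 of 1191873 by p against WT and 94, 15, 300, and 226 against hSTAT5B. The log2 difference from WT at the first CpG was -4.64 (SE 0.71, limma adjusted p = 0.660), and that at the second was -4.59 (SE 0.82, adjusted p = 0.727). None of the 4 reached the threshold with that test. On pooled reads, Fisher's exact test gave adjusted p values of 3.29e-07, 3.96e-07, 1.64e-09, and 1.79e-07 against WT, again without the spread between libraries. These 4 CpGs were singled out for their values, and the ranks describe them and test nothing.

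**Figure D3:**
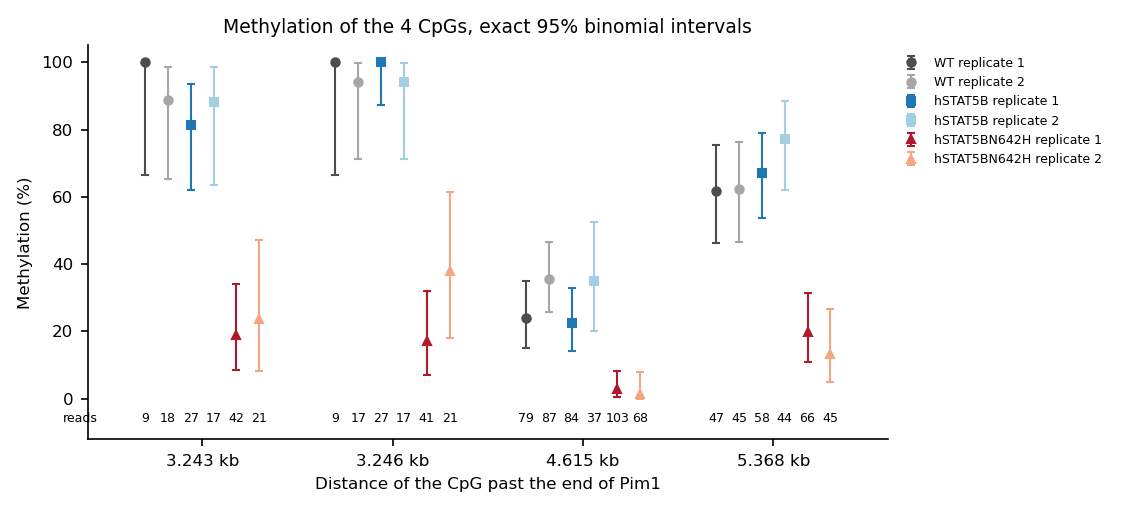
Methylation in percent of the 4 CpGs downstream of Pim1 in each library, with exact 95% binomial intervals as bars and the number of reads under each point. The horizontal axis names each CpG by its distance past the end of the gene. The hSTAT5BN642H libraries (triangles) lie below the other 4 at each CpG, from 17.1% to 38.1% at 3.246 kb and from 1.47% to 2.91% at 4.615 kb.

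The stretch spans 2126 bp and overlaps no annotated gene, and the next gene on this side, Gm17657, starts 22.53 kb past the end of Pim1. The other measured CpGs within the stretch and between it and the gene were low in WT or varied between replicates. The CpG at 29500661, which lies 66 bp before the third, held 22.2% and 6.90% in WT, 5.56% and 4.55% in hSTAT5B, and 5.66% and 9.52% in hSTAT5BN642H, so that hSTAT5BN642H overlapped WT and lay above hSTAT5B. The CpGs at 29501212 and 29501244 held at most 11.8% in any library and 0% in hSTAT5B and hSTAT5BN642H. On the gene side, the CpG at 29498329 held 27.3% and 9.09% in WT and 0% in the other 4 libraries, and that at 29498546 held 15.4% and 30%, 0% and 36.4%, and 0% and 0%.

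On either side of the stretch and the gene lay CpGs that were high in all genotypes and others that differed. The CpG 4.86 kb upstream of the start (29485893) held 100% and 87.5% in WT, 88.9% and 90.9% in hSTAT5B, and 100% and 92.3% in hSTAT5BN642H. Past the 10 kb window, the CpG 10.678 kb from the end (29506790) held 94.7% and 100%, 88.2% and 100%, and 100% and 72%, and that at 23.686 kb (29519798) held 100% and 100%, 96.6% and 97.1%, and 96.9% and 97.8%. hSTAT5BN642H and WT overlapped at the first and second of these, and at the third WT was higher by less than 4 points. Between them, the CpGs 18.297 kb and 18.317 kb from the end (29514409 and 29514429) held 100% in every WT and hSTAT5B library. In hSTAT5BN642H they held 84.6% and 88.9%, and 77.8% and 83.3%, lower without overlap by -13.2 and -19.4 points, on 5 to 13 reads.

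**Figure D4:**
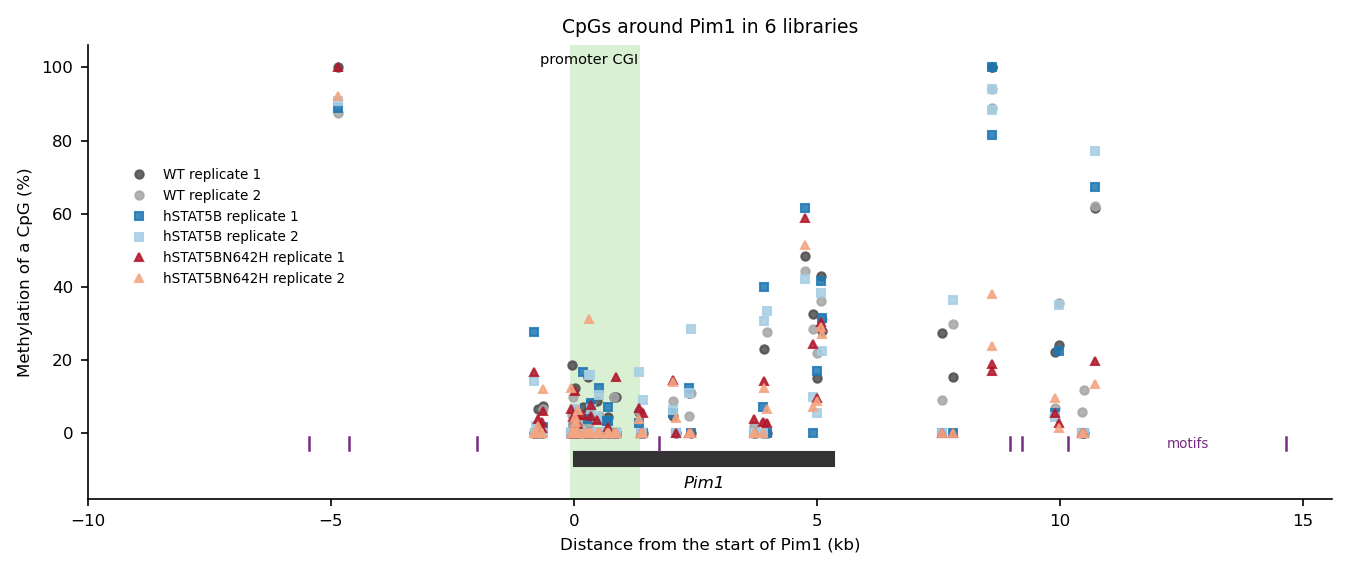
Methylation in percent of each CpG around Pim1 against its distance from the start of the gene in kb, for the 6 libraries. The dark bar is the gene, the shaded band the promoter CGI, and the ticks are STAT5-type motifs. At 4 of the 9 CpGs past the gene, triangles (hSTAT5BN642H) lie below both circles (WT) and squares (hSTAT5B). At 10.727 kb, for example, they lie at 19.7% and 13.3% against 61.7% to 77.3%. At the other 5 they do not separate from both, though at 2.217 and 2.434 kb past the end of the gene they lie below the circles.

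The motif TTCNNNGAA, which reads the same on both strands in its fixed letters, occurred 3 times in the stretch, at 29499733, 29499968, and 29500924. Of 1244840 windows of this length in the genome, 56.0% held it at least once and 6.55% at least 3 times. The nearest measured CpG to any of the 3 was the third of the stretch, 201 bp from the last motif, and no measured CpG lay inside one. The CpGs at 29499355, 29500727, and 29501480 lay in MspI sites, and the first, the second, and the fourth lay in soft-masked repeats. Sequences beside these sites were compared with every C read as T, as after full bisulfite conversion, each on the strand read away from the site. So converted, the 40 bases to the right of the first MspI site occurred at 1 of the 1630167 MspI sites of the genome. Those to its left occurred at 608, while both sides of the third CpG were found once. Those left of the fourth were found once and those right of it at 17 sites. Over the series, 1.48% of soft-masked CpGs outside CGIs were at least 20 points lower in hSTAT5BN642H than in WT without overlap, against 2.26% of the others. Around the 10 genes the order was the opposite, with 4 of 24 soft-masked CpGs (16.7%), of which 3 were in the Pim1 stretch, against 10 of 270 others (3.70%). For CpGs in MspI sites this share was 1.81% over the series, against 2.08% elsewhere, and around the 10 genes it was 5.56% against 3.79%. The part of the repeats in the Pim1 values was not tested.

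Bcl2 and Bcl2l1 also held single CpGs of wide difference. In a Bcl2 intron, position 106619123 on chromosome 1 was methylated in 13 of 13 and 10 of 11 reads in WT, 20 of 22 and 11 of 11 in hSTAT5B, and 9 of 17 and 4 of 6 in hSTAT5BN642H, a difference from WT of -35.7 points. Position 106619151, 28 bp away, held 100% and 72.7%, 90.9% and 100%, and 50% and 57.1%. Few reads stood behind the second hSTAT5BN642H library, 6 and 7. The third Bcl2 CpG, in an exon (106712846), held 41.7% and 5.88% in WT and 0% in the other 4 libraries, so that it rested mostly on WT replicate 1.

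In an exon of Bcl2l1, position 152829798 on chromosome 2 was methylated in 14 of 20 and 16 of 18 reads in WT, 9 of 21 and 6 of 9 in hSTAT5B, and 6 of 20 and 8 of 21 in hSTAT5BN642H. The levels were 70% and 88.9%, 42.9% and 66.7%, and 30% and 38.1%, with hSTAT5B between the others (adjusted p = 0.0185 for hSTAT5BN642H against WT by Fisher's exact test on pooled reads, 0.727 by limma). The other Bcl2l1 CpG, 4.859 kb upstream (152836587), held 100% and 100% in WT on 6 and 5 reads, 66.7% and 82.6% in hSTAT5B, and 78.9% and 78.6% in hSTAT5BN642H. At this CpG both transgenic genotypes were below WT.

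At Socs1 the 3 CpGs were those of the downstream cluster. The one at 10773771 was methylated in 14 of 14 and 9 of 11 reads in WT, 12 of 14 and 5 of 7 in hSTAT5B, and 15 of 28 and 12 of 23 in hSTAT5BN642H, or 100% and 81.8%, 85.7% and 71.4%, and 53.6% and 52.2%. At Myc, position 61981683 held 20% and 20%, 3.57% and 11.1%, and 0% and 0%. At Socs3, position 117959647, 6.432 kb past the end, was the CpG that lay higher in hSTAT5BN642H than in WT, with 30.3% and 16.3% in WT, 26.5% and 50% in hSTAT5B, and 52.2% and 43.2% in hSTAT5BN642H. Its difference from WT was 24.4 points (adjusted p = 0.0467 by Fisher's exact test on pooled reads, 0.813 by limma), and hSTAT5BN642H overlapped hSTAT5B there.

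Against hSTAT5B, Fisher's exact test on pooled reads called the Pim1 stretch and 3 other CpGs. These were Bcl2l1 152829760 (adjusted p = 0.0314), Ccnd2 127154982 (0.0336), and Mcl1 95659613 (0.0497). The Ccnd2 CpG, in a CGI upstream of the gene, held 25% and 27.3% in hSTAT5B and 0% and 0% in hSTAT5BN642H, and 27.3% and 6.25% in WT. By limma the adjusted p of each of the 3 was 0.773.

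Most motifs around the 10 genes had no measured CpG near them. The windows held 200 TTCNNNGAA motifs, of which 23 had a measured CpG within 100 bp and 2 had one inside. The first of these lies in an exon within the promoter CGI of Cish, which holds 4 motifs in the pairs shown above, and its CpG (107296784) was methylated in 3 of 16 and 3 of 58 reads in WT, 0 of 28 and 3 of 27 in hSTAT5B, and 5 of 64 and 4 of 31 in hSTAT5BN642H. The other lies in the Socs2 intron, and its CpG (95406785) was methylated in 20 of 20 and 34 of 38, 32 of 32 and 26 of 26, and 42 of 46 and 30 of 30 reads. The genotypes overlapped at both, low at Cish and high at Socs2. In RefSeq promoters (GRCm38.p6, 250 bases before to 50 after a start), 7 of the 10 genes were found, and 8.30% of 32851 promoters held the motif and 0.457% held it at least 2 times. The Cish promoter held it 2 times and that of Socs3 1 time, and those of Socs1, Pim1, Bcl2, Bcl2l1, and Mcl1 held it 0 times.

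Between hSTAT5B and WT, 5 of the 10 neighborhoods were higher by level and 5 lower, from -4.12 points at Socs1 to 3.97 points at Socs3. At Pim1 the log2 difference was -0.05 (SE 0.20, limma adjusted p = 0.991). Of the 71 clusters, the lowest limma p lay at an exon of Pim1 (chr17:29494637-29494732, 3 CpGs), which held 7.69% and 10.2% in WT, 15.7% and 21.4% in hSTAT5B, and 6.64% and 6.39% in hSTAT5BN642H, so that hSTAT5B was 9.61 points above WT (adjusted p = 0.773). The other exon cluster of Pim1, described above, was the one in which both transgenic genotypes lay below WT.

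Among single CpGs, named after their values were seen, the widest difference between hSTAT5B and WT without overlap lay downstream of Socs3 (chr11, position 117959782). It held 20% and 50% in WT, 57.1% and 100% in hSTAT5B, and 36.4% and 100% in hSTAT5BN642H, on 5 to 11 reads, so that the replicates of each genotype lay far apart. Replicates were closer upstream of Mcl1 (chr3, position 95658153). That CpG held 50% and 59.4% in WT, 79.3% and 82.4% in hSTAT5B, and 57.1% and 60% in hSTAT5BN642H, so that hSTAT5B alone stood above the other 4 libraries. In the Bcl2l1 exon, position 152829802 held 73.7% and 50%, 95.5% and 77.8%, and 60% and 57.1%, or 24.8 points more in hSTAT5B than in WT. The CpG 4 bp before it, described above, differed by -24.7 points. By limma the adjusted p of every one of the 735 CpGs was 1 in this comparison.

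Other genes of the pathway, from lists written with earlier results of these data known, gave 22 neighborhoods of 26 genes with enough CpGs. Of 8 receptors and kinases, 6 phosphatases and other SOCS genes, and 8 other targets, limma called 0 in each comparison, and 3, 2, and 2 of the 22 were at unadjusted p under 0.05 for hSTAT5BN642H against WT, hSTAT5B against WT, and hSTAT5BN642H against hSTAT5B, against 9.03%, 5.96%, and 10.1% of all neighborhoods. For hSTAT5BN642H against WT, 8 of the 22 were lower and 6 higher without overlap, against 27.3% and 15.4% of all, and the median difference was -0.953 points, against -0.344. The widest difference was at Il2rb, which encodes the shared beta chain of the IL-2 and IL-15 receptors. Its neighborhood held 80.4% and 82.7% in WT, 81.2% and 80.7% in hSTAT5B, and 64.0% and 62.4% in hSTAT5BN642H, a difference of -18.3 points from WT (limma adjusted p = 0.227). In the other direction, Stat5a and Stat5b, neighbors on chromosome 11, were 3.55 and 2.75 points higher in hSTAT5BN642H than in WT without overlap. The 10 kb flanks of neighboring genes can share CpGs. The part of reads from the human STAT5B transgene in these values was not tested. By limma on summed reads, the adjusted p was 0.492 for Stat5a and 0.945 for Stat5b.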

How the data were processed

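RRBS reads were trimmed with Trimmomatic and aligned with BSMAP in RRBS mode to GRCm38 (mm10) by the authors, whose own scripts called methylation. Tool versions were not given in the sources used here. The deposited files list for each CpG the counts of methylated and of all reads, and a score of 1000 times the methylated share, which the counts matched to within 0.5. Reads had no molecular identifiers, so copies of 1 molecule could not be told apart. The intervals and Fisher's exact test count every read as independent, and the intervals cover counting error only on that footing.

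CGIs were found in GRCm38 (length over 200 bp, GC over 50%, observed to expected CpG over 0.6), with genes from GENCODE M21. CGIs and clusters needed 3 CpGs or more and neighborhoods 10. For all units of a kind, limma 3.58.1 (R 4.3.3) was fitted to log2((methylated + 1)/(unmethylated + 1)) in 1 model of all 6 libraries, with Benjamini-Hochberg adjustment and a threshold of 0.05, and was tested on simulated data. The limma p-values set each difference against the spread between libraries within genotypes. This spread is pooled over the 3 genotypes and drawn toward that of all units. With 2 libraries against 2, an exact permutation test cannot go below p = 0.333, and none is given. Python 3.11.15 was used with scipy 1.17.1, pandas 2.3.3, numpy 2.4.6, and matplotlib 3.10.9.

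Members and gene lists were chosen with earlier results of these data known. All 10 genes are named, and for each the cluster outside promoter CGIs with the widest difference between hSTAT5BN642H and WT without overlap. Other clusters and CpGs were named after their values were seen, and single CpGs were analysed after seeing the data. Alternatives changed the read limit, offset, weights, window, model, block, and libraries. Deviations of same-numbered libraries correlated at 0.001 to 0.002 over 879866 CpGs, so that they shared no measurable deviation in methylation. The labels do not say whether same-numbered libraries shared a litter or day, which this correlation cannot show. The libraries were treated as unpaired. Motifs were searched on both strands.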

Additional observations from a re-analysis of the deposited data

How the results depend on the processing

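No promoter CGI, neighborhood, cluster, or single CpG of the 10 genes was called under any alternative except Fisher's exact test on pooled reads. This test called 5, 2, and 7 neighborhoods, 5, 1, and 5 clusters, and 6, 0, and 7 single CpGs for hSTAT5BN642H against WT, hSTAT5B against WT, and hSTAT5BN642H against hSTAT5B, where it called 35.1%, 21.6%, and 37.3% of all neighborhoods, 7.26%, 3.05%, and 6.98% of all clusters, and 0.844%, 0.145%, and 0.62% of all CpGs. Libraries with the same replicate number were treated as unpaired, and with the replicate block 0 units were called, as without it. At Pim1 the neighborhood difference between hSTAT5BN642H and WT ran from -0.71 to -0.89 on the log2 scale, with adjusted p from 0.127 (limma on levels) to 0.786 (without hSTAT5BN642H replicate 1), 0.164 by the quasi-binomial model, and 8.74e-15 by Fisher's exact test; with the replicate block it was -0.82 (adjusted p = 0.482). Between hSTAT5B and WT it turned from -0.05 to 0.02 without WT replicate 1, 0.16 without hSTAT5B replicate 2, and 0.0057 at 1 read or more, and leaving out 1 library gave -0.26 to 0.16.

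Counts of clusters at least 5 points apart, 7, 7, and 6 in the same order, moved more. At 10 points they were 3 and 2 for the first 2 comparisons, and by pooled reads the second was 3. With at least 5 CpGs they were 0, 3, and 1, at 10 reads the second was 4, and at 1 read they were 17, 19, and 18. Leaving out 1 library gave 7 to 13, 7 to 13, and 6 to 12. The highest were 13 without hSTAT5BN642H replicate 1 and 11 without WT replicate 2 in the first, 13 without WT replicate 2 and 11 without hSTAT5B replicate 2 in the second, and 12 without hSTAT5B replicate 2, 10 without hSTAT5BN642H replicate 1, and 12 without hSTAT5BN642H replicate 2 in the third. CpGs at least 20 points lower ran over 13 to 19, 4 to 12 (the highest without hSTAT5B replicate 1), and 14 to 22, and those higher over 1 to 7, 9 to 12, and 0 to 5. Fewer libraries raise such counts by construction, and other causes were not tested. At 5 reads, 1 read is 20 points of a CpG, which limits single levels.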
